A study of Homo sapiens with 4 samples.

Results

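The genes described here carried at least 400 crosslinked reads in the PAR-CLIP of FH-DHX36-E335A and no cluster in the PAR-CLIP of FH-DHX36. They were selected on these measured values, and were 494 of the 26490 genes in the deposited table and 494 of the 4087 genes with at least 400 FH-DHX36-E335A reads, which are called well covered below. This is 12.1% of the well-covered genes (95% Wilson interval 11.1% to 13.1%). Because the reads and the absence of a cluster chose the genes, both are given as a description and no test was made on them. The other 3593 well-covered genes had a cluster in both PAR-CLIPs.

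Both cell lines derived from HEK293, an established line of human embryonic kidney origin, and stably carried a tetracycline-inducible, HA- and FLAG-tagged DHX36. The labels name isoform 2 for FH-DHX36 and isoform 1 with the E335A exchange for FH-DHX36-E335A, so that the isoform and the loss of helicase activity cannot be told apart between the lines. In both, expression was switched on for 15 h by tetracycline at 500 ng per ml, cells labeled with 4-thiouridine were irradiated at 365 nm for 5 min, and the tagged protein was precipitated with FLAG antibody. There were 2 replicates per cell line, 4 samples in all, but the table holds 1 value per gene and cell line, so that no spread between replicates could be computed. The labels name no deletion of the endogenous gene in either line.

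DHX36, also known as RHAU, is a DEAH-box helicase that binds and unwinds G-quadruplexes, four-stranded structures formed by nearby runs of guanine. The E335A exchange lies in the DEAH box and removes helicase activity while RNA can still be bound. In PAR-CLIP, 4-thiouridine crosslinked to the protein appears as a T-to-C conversion in the reads, and overlapping reads with such conversions are called as a cluster.

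The difference in 3'UTR base composition between the 494 genes and the well-covered genes bound in both is described further on, and the following stretches show what was searched for. The table gives no cluster positions, so none of these stretches is a mapped binding site. A G-run match was defined as 4 runs, each of 2 guanines or longer, with 1 to 7 nt of any base between runs. G-run matches were counted without overlap, so that a stretch of more runs can hold several. A- and T-rich stretches were represented by ATTTA, and only the sense strand of the 3'UTR was searched. The first set is from the 3'UTRs of the 5 genes with most 3'UTR reads, RNF11, FGF9, ZNF33A, RNF168 and BACH1, for which the table lists between 2004 and 2760 reads in the 3'UTR. They lie in the annotated 3'UTRs of GRCh37 at chr1:51737223-51737245 (plus strand) for RNF11, chr13:22275711-22275725 and chr13:22276199-22276221 (plus) for FGF9, chr10:38347458-38347473 and chr10:38345678-38345700 (plus) for ZNF33A, chr3:196197628-196197646 and chr3:196198193-196198215 (minus) for RNF168, and chr21:30716775-30716789 and chr21:30718346-30718368 (plus) for BACH1. Each is printed 5' to 3' on the gene's strand, with capitals for runs of guanine or for ATTTA. Because the base between runs may itself be a guanine, an unbroken stretch of 5 guanines counts as a pair of runs, as in BACH1 and ZBTB7B. RNF11 had 6 ATTTA and no G-run match of at most 30 nt.
RNF11, ATTTA: tataattgtATTTAgatcttgtt
FGF9, G runs: GGaGGcttGGatGGG
FGF9, ATTTA: ATTTAttttatatATTTATTTAt
ZNF33A, G runs: GGGaGGctgaGGcGGG
ZNF33A, ATTTA: tatgttagaATTTAcactgagga
RNF168, G runs: GGGatgaGGctGGatGGGG
RNF168, ATTTA: ccatctccaATTTAattcaattt
BACH1, G runs: GGGtgtaGGGGGaGG
BACH1, ATTTA: tcatagtATTTAATTTAcatttc

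The second set shows the ends of the range in base composition, among genes with a 3'UTR of at least 1000 nt and more than 50% of their reads in it. TBC1D15 and FAM135A had the most A and T, at 73.0% each, and no G-run match. ZBTB7B and SH3BP5L had the least, at 38.3% and 42.4%, with 13 and 9 G-run matches. The stretches lie at chr12:72317127-72317149 (plus), chr6:71269714-71269736 (plus), chr1:154990470-154990480 (plus) and chr1:249104730-249104746 (minus) of GRCh37.
TBC1D15, ATTTA: tttacaaagATTTAaactaatta
FAM135A, ATTTA: ctaagaaatATTTAtaccttttt
ZBTB7B, G runs: GGGGGtGGGGG
SH3BP5L, G runs: GGGaGGGaGGGtgtGGG
In all, TBC1D15 had 428 reads and FAM135A 403, and the G-rich pair had 463 for ZBTB7B and 402 for SH3BP5L.

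Crosslinked reads summed to 8752127 for FH-DHX36-E335A and to 2160413 for FH-DHX36, which differ by a ratio of 4.05. At an equal share of all reads, the lower limit of 400 FH-DHX36-E335A reads corresponds to 98.7 FH-DHX36 reads. The 494 genes had between 400 and 4484 reads, with a median of 603.5 and quartiles of 484 and 874. Scaled by 4.05, the median was 149 reads and the highest value 1107. Because of the limit of 400 reads, the scaled values of all 494 genes had to lie above 6. This was the lowest number of FH-DHX36 reads listed for any gene with a cluster. The scaled values are given for scale only. They do not show that a cluster would have been called, since a cluster is called from reads at 1 position and these reads were spread over a median of 8 clusters per gene.

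Reads per cluster lay closer to the low end of what FH-DHX36 clusters held. The 494 genes had a median of 83.5 FH-DHX36-E335A reads per cluster, against a median of 127 in the 3593 genes with clusters in both. These groups also differed in reads per gene, with medians of 603.5 and 1151. At similar reads per gene the medians per cluster were closer below 1000 reads. They were 70.0 against 77.6 from 400, 75.8 against 85.9 from 500 and 86.6 against 99.6 from 700 reads. From 1000 to below 2000 reads they were 107 against 127, and from there to below 5000 the order reversed, at 218 against 210. Among 2570 genes with a single FH-DHX36 cluster, the median was 45 FH-DHX36 reads and the 10th percentile 20. After scaling by the totals, 234 of the 494 genes (47.4%) had fewer than 20 reads per cluster. Without matching for reads per gene, 857 of the 3593 genes bound in both (23.9%) had fewer than 20. The other 260 of the 494 genes had at least 20, and 73 of them at least 45. The strongest cluster of a gene is not listed, so that these means per cluster understate it where reads are uneven.

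The share of genes without an FH-DHX36 cluster fell with the number of FH-DHX36-E335A reads. It was 27.6% (140 of 508) from 400 to below 500 reads, 22.8% (168 of 737) below 700 reads and 12.6% (87 of 693) below 1000 reads, each class starting where the one before ended. From 1000 to below 2000 reads it was 7.34% (79 of 1076), and from there to below 5000 reads 2.58% (20 of 774). None of the 299 genes with 5000 reads or more lacked an FH-DHX36 cluster, for which the upper 95% Wilson limit is 1.27%.

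**Figure D1:**
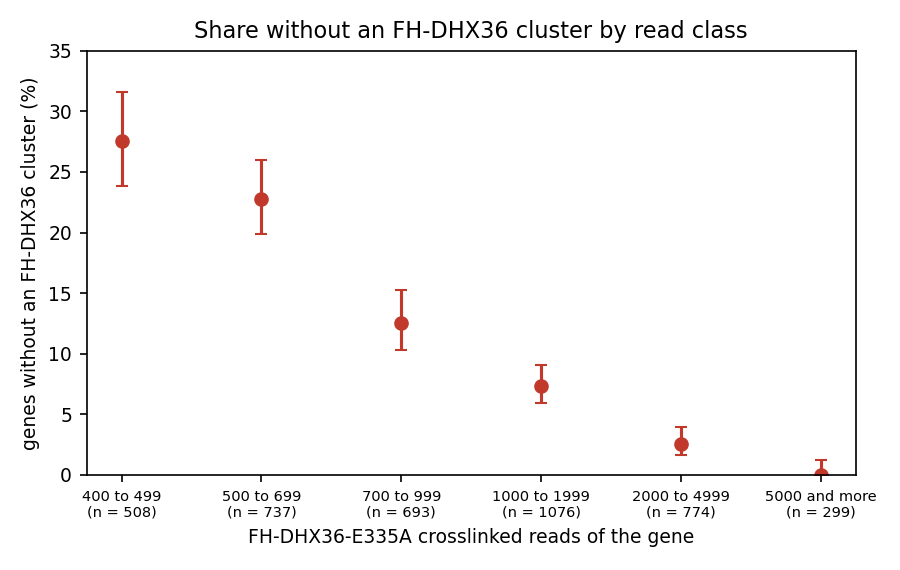
Share of genes without an FH-DHX36 cluster (vertical axis, percent) in 6 classes of FH-DHX36-E335A crosslinked reads (horizontal axis); points are shares of the genes in the class and bars 95% Wilson intervals. The share is 27.6% in the lowest class and 0% in the highest.

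In the same classes, the genes bound in both had medians of 89.5, 101, 142, 211, 470.5 and 1395 FH-DHX36 reads, and the lowest value of each class below 5000 reads lay between 8 and 19. Some well-covered genes with a cluster in both were therefore close to having none. ATP6V1B2, a subunit of the vacuolar proton pump, had 1044 FH-DHX36-E335A reads and 8 FH-DHX36 reads. LYAR and the nuclear receptor NR2F2 had 817 and 1745 FH-DHX36-E335A reads and 11 FH-DHX36 reads each. In all, 89 of the 3593 genes bound in both had at most 20 FH-DHX36 reads, and 983 (27.4%) had a single FH-DHX36 cluster. Their ratio of FH-DHX36-E335A to FH-DHX36 reads had a median of 6.11 and an upper quartile of 11.6.

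At the lower limit of the rule, RNGTT, which caps mRNA, and GLE1, a factor of mRNA export, had 400 reads each, and the acyl-CoA synthetase ACSL3 had 401. Just outside it, STAT5B had 399 reads, the copper transporter SLC31A1 397 and the malic enzyme ME2 396, each without an FH-DHX36 cluster. Nothing in these values separates the genes on either side of the limit. Among all 9131 genes with an FH-DHX36-E335A cluster, 3462 (37.9%) had no FH-DHX36 cluster, and the 494 genes were 14.3% of them but carried 53.0% of their reads.

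**Figure D2:**
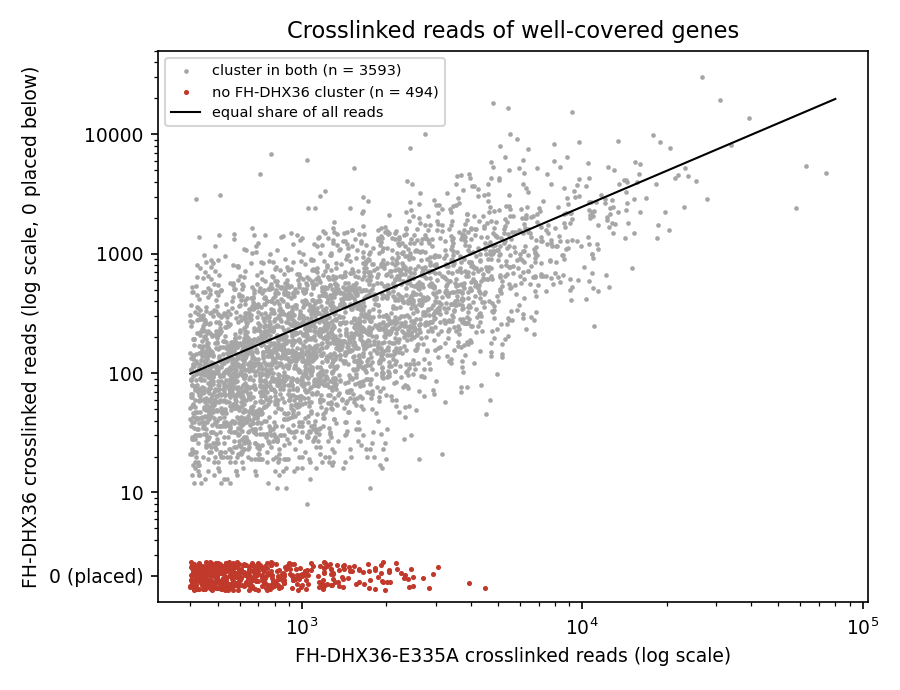
FH-DHX36 crosslinked reads (vertical log axis) against FH-DHX36-E335A crosslinked reads (horizontal log axis) of the 4087 well-covered genes, grey for 3593 genes with a cluster in both and red for 494 genes without an FH-DHX36 cluster, which are placed at the bottom with a random vertical shift because 0 has no place on a log axis. The black line marks equal shares of all reads, a ratio of 4.05, and the red points end at 4484 FH-DHX36-E335A reads.

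The genes of most reads were of several kinds. CDC123, an assembly factor of translation initiation factor eIF2, had 4484 reads in 11 clusters. GSR, glutathione reductase, had 3956 reads in 14 clusters, of which 3008 reads lay outside the 4 annotation categories of the table (introns, CDS and both UTRs). RABGAP1L, a GTPase-activating protein, had 3060 reads in only 2 clusters, with 2973 of them in the 5'UTR. FGF9, a secreted fibroblast growth factor, had 2937 reads in 17 clusters, of which 2721 lay in the 3'UTR. RNF11 and RNF168, both ubiquitin ligases of the RING type and the latter acting at DNA breaks, had 2839 and 2498 reads. UQCRB, a subunit of respiratory complex III, had 2496 reads and SLIRP, which binds mitochondrial RNA, had 2403. BACH1, a repressor of heme oxygenase and related genes, had 2442 reads. These counts are not divided by transcript length, so that they rank genes by reads and not by binding per base.

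RPL17-C18orf32, a readthrough gene that joins a ribosomal protein gene to its neighbour on chromosome 18 (47008051 to 47018849, minus strand, GRCh37), had 2704 reads in 1 cluster outside the 4 categories. The table lists RPL17 itself with 358 FH-DHX36-E335A and 183 FH-DHX36 reads, and C18orf32 with 343 and 0. The readthrough gene overlaps each of the other two entries in the genome, and reads of a shared exon cannot be assigned to the readthrough gene with certainty. KLHL23 likewise shares its locus with a readthrough gene, PHOSPHO2-KLHL23.

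**Figure D3:**
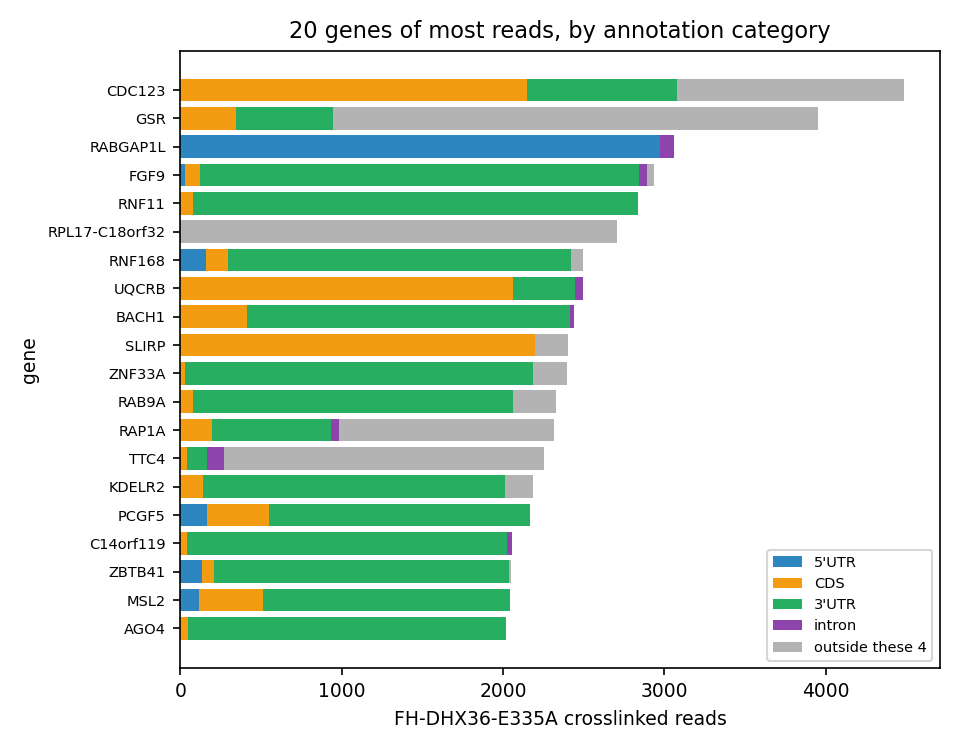
FH-DHX36-E335A crosslinked reads (horizontal axis) of the 20 genes of most reads, with the bars divided by annotation category and grey for reads outside the 4 categories. The 3'UTR makes up most of the bar for FGF9, RNF11, RNF168 and BACH1, the CDS for UQCRB and SLIRP, and the 5'UTR for RABGAP1L.

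Most crosslinked reads of the 494 genes lay in the 3'UTR. Of 392627 reads, 55.8% were in the 3'UTR, 17.8% in the CDS, 4.57% in the 5'UTR, 5.07% in introns and 16.8% outside these 4 categories. By clusters, of which there were 4309, the 3'UTR held 51.3% and the CDS 27.5%. The 3'UTR held more than 50% of the reads in 292 genes, the CDS in 53, the 5'UTR in 10 and introns in 20. In 55 genes more than 50% of the reads lay outside the 4 categories, and in 64 genes no category passed 50%.

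Genes bound almost wholly in the 3'UTR included LRP5, a co-receptor of the Wnt pathway, with 1581 of 1598 reads there, and the transcription factor EBF3 with all of its 1417. AGO4, an Argonaute protein of the microRNA pathway, had 1974 of 2019 reads in the 3'UTR. All reads of 35 genes were in the 3'UTR. In the CDS, SLIRP had 2196 of 2403 reads and GPS2, a subunit of the NCoR corepressor complex, all of its 926 in 1 cluster. SRRM1, a splicing coactivator, had 969 of 1481 reads in the CDS.

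Beside RABGAP1L, the 5'UTR led in TMEM60, with 697 of 718 reads, in BHLHE41, a circadian repressor, with 633 of 849, and in TROAP with 480 of 566. GPBP1L1 had 701 of its 1914 reads there. Intronic reads were concentrated in few genes. KLHL5 had all of its 920 reads in introns, CNOT4, a ligase associated with the CCR4-NOT complex, 918 of 1203, and GCH1, the first enzyme of tetrahydrobiopterin synthesis, 826 of 903. PHF10, a subunit of the PBAF chromatin remodeler, had 951 of its 1356 reads in introns. Outside the 4 categories lay 1989 of 2257 reads for TTC4 and 1580 of 1818 for FAM96B, which acts in iron-sulfur protein assembly.

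The median 3'UTR share per gene was higher than in well-covered genes bound in both when genes of similar read number were set side by side. At 400 to below 1000 reads, the 395 genes without an FH-DHX36 cluster had 54.9% of their reads in the 3'UTR and the 1543 genes bound in both 47.3%, while the CDS held 19.4% and 23.3%. The pooled share was lower only from 2000 to below 5000 reads, at 52.9% against 54.9%. The median share per gene was 58.5% against 40.0% below 500 reads and 71.7% against 56.8% from 1000 to below 2000 reads, and it was higher in all 5 classes that hold both kinds of gene. The interquartile ranges overlapped widely in each class. Relative to length, the difference was not seen. The ratio is the 3'UTR's share of exonic reads divided by its share of exonic length. It was 1.22 in both groups at 400 to below 1000 reads. There the 3'UTR made up 57.1% of the exonic length in genes without an FH-DHX36 cluster and 51.5% in those bound in both.

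The 3'UTRs of the 494 genes held more A and T. The median was 63.5% over the 494 genes and 59.8% over the 3568 genes bound in both with a 3'UTR. Within read classes the medians were 64.0% against 57.4% below 500 reads, 62.9% against 59.2% below 700, 63.1% against 59.1% below 1000, 64.4% against 59.8% below 2000 and 64.1% against 60.9% below 5000. The median was therefore higher in each of the 5 classes, with interquartile ranges that overlapped in each. Seen from the other side, when the well-covered genes of 400 to below 1000 reads were divided into 4 groups of equal size by the A and T content of the 3'UTR, the genes without an FH-DHX36 cluster were 7.45% of the lowest group, 18.3% of the next, 29.0% of the following and 27.2% of the highest, against 20.4% over all 1938. The Wilson interval of the lowest group is 5.43% to 10.1% and covers counting of genes only, which are not independent replicates.

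G-run matches went the other way. The 3'UTRs of the 494 genes had a median of 0.628 matches per 1000 nt and those bound in both 1.21. Below 500 reads the medians were 0.457 and 1.49, and from 2000 to below 5000 reads 1.13 and 1.16, so that the difference was small in the class of most reads, which held 20 genes without an FH-DHX36 cluster. At 400 to below 1000 reads, genes without an FH-DHX36 cluster were 26.0% (147 of 565) of the genes without a G-run match in the 3'UTR and 9.78% (44 of 450) of those with more than 3 matches per 1000 nt. A G-run match was present in the 3'UTR of 319 of the 494 genes (64.6%) and of 2721 of the 3568 genes bound in both (76.3%).

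To compare stretches of equal length, the first 1000 nt of each 3'UTR of at least that length were searched. A G-run match was found in 48.1% of 347 such windows of the genes without an FH-DHX36 cluster, in 64.5% of 2408 windows of the genes bound in both and in 65.2% of 9775 windows of all genes in the table. ATTTA was found in 89.3%, 80.2% and 75.5% of them, and TATTTAT, which contains ATTTA, in 36.6%, 24.3% and 23.9%. GGAGGA was found in 28.8%, 31.4% and 32.6%, and at 400 to below 1000 reads in 26.5% against 33.8% of the windows of genes bound in both. A match describes the letters of the window and is not evidence of a structure or of binding.

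**Figure D4:**
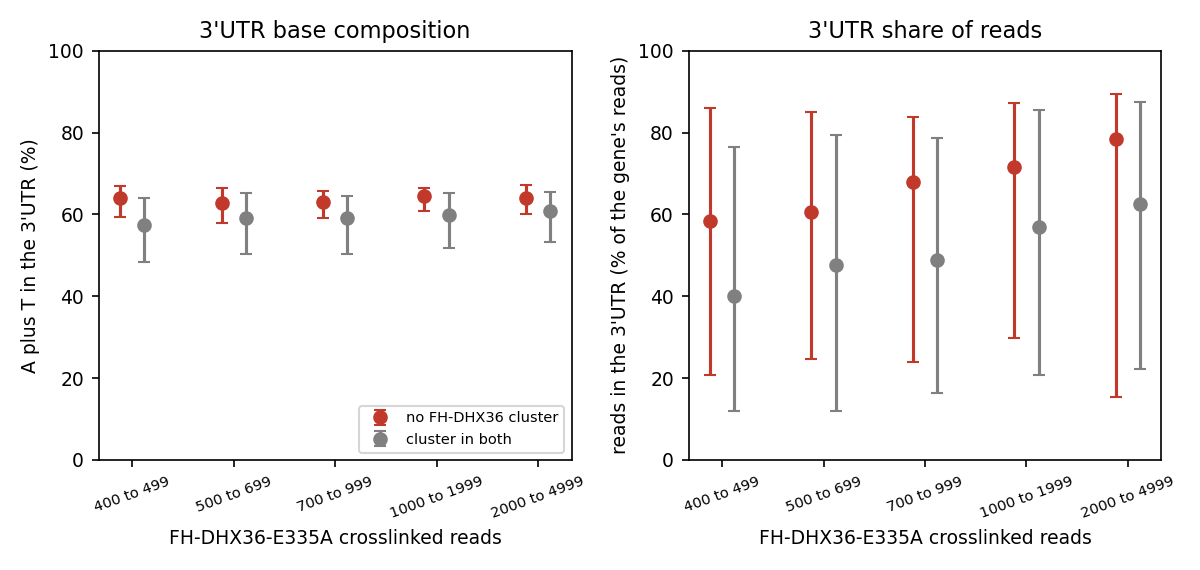
Left, A plus T in the 3'UTR (percent), and right, 3'UTR share of the gene's reads (percent), in 5 classes of FH-DHX36-E335A crosslinked reads, with red for genes without an FH-DHX36 cluster and grey for genes bound in both; points are medians and bars reach from the lower to the upper quartile. The red medians lie above the grey ones in each class, at 64.0% against 57.4% A plus T and 58.5% against 40.0% of reads in the lowest class.

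NXPM, which relates a gene's share of all crosslinked reads to the abundance of its RNA, spanned several orders of magnitude. Its median over the 494 genes was 13.2, with quartiles of 3.74 and 29.7. NXPM was above 100 in 27 genes, from 10 to 100 in 244, from 1 to below 10 in 173 and below 1 in 50. In the 3593 genes bound in both the median was higher, 15.8, and 9.88% were above 100, against 5.47% of the 494. Within read classes the order was mostly reversed. The medians were 8.02 against 7.71 below 500 reads, 9.75 against 9.64 below 700, 17.4 against 10.97 below 1000 and 21.9 against 16.7 below 2000. From 2000 to below 5000 reads the genes bound in both had the higher median, 30.8 against 22.7. RNA abundance, recovered from reads and NXPM in the units of the authors' RNA-seq, had a median of 6.32, against 9.28 for well-covered genes with clusters in both. Within read classes the medians were 6.26 against 6.79 below 500 reads and 6.56 against 6.90 below 700 reads, 5.76 against 8.69 below 1000 and 6.30 against 9.12 below 2000, and the order was reversed from 2000 to below 5000 reads, at 11.7 against 11.2. Since reads of the 494 genes varied less than abundance, NXPM was high mainly where abundance was low.

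Among genes with an abundance of at least 1, ZNF33A had the highest NXPM, 140, followed by AGO4 at 120, MSL2, a subunit of the MSL histone acetyltransferase complex, at 119.5, MEX3B, an RNA-binding protein, at 111 and the homeobox factor SIX4 at 101. KIAA0430, KLHL5, RABGAP1L, the microtubule adaptor HOOK3 and RNF168 followed, with NXPM between 82.2 and 97.9. FGF9 reached 456 at an abundance of 0.735. At the other end, RPL31, a protein of the large ribosomal subunit, had an NXPM of 0.0150 and an abundance of 3202, and SLIRP, among the 10 genes of most reads, an NXPM of 0.368 at an abundance of 745. The highest values, 136195 for KLHL23 and 59643 for TXNRD3NB, are of genes whose recovered abundance was 0, where the constant in the denominator alone sets the value.

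**Figure D5:**
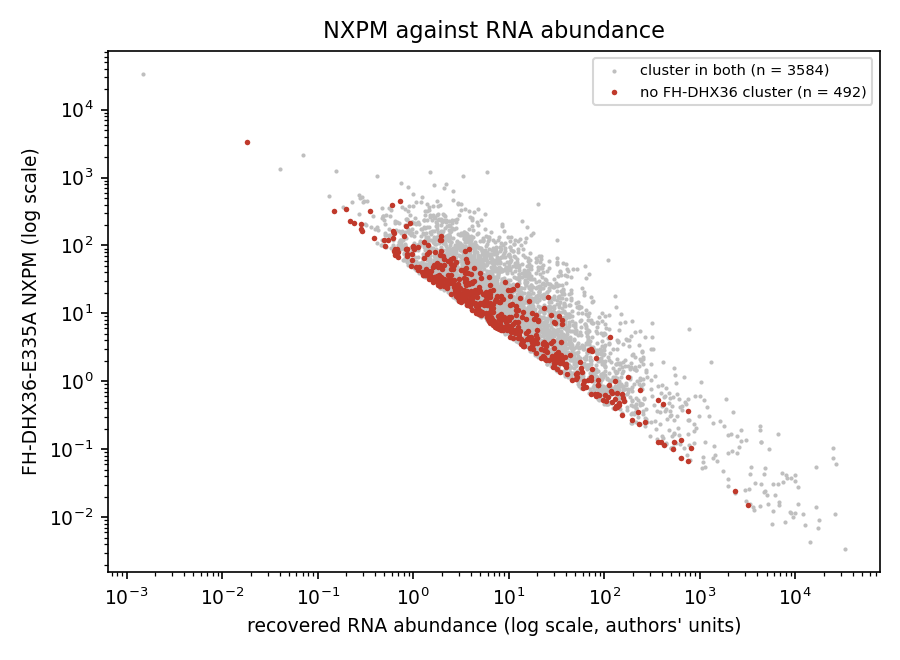
FH-DHX36-E335A NXPM (vertical log axis) against recovered RNA abundance (horizontal log axis, units of the authors' RNA-seq), grey for genes bound in both and red for genes without an FH-DHX36 cluster; genes with an abundance of 0.001 or less are left out. The sloping lower edge is the limit of 400 reads, and the red points lie near it because their median was 603.5 reads.

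PCGF5, a Polycomb group RING finger protein, had the most clusters, 35 with 2166 reads, followed by the ETS factor ELK4 with 32 and TOR1AIP2 with 27. PHF3, LPGAT1 and SIX4 had 24 each, as had the deubiquitinase YOD1. At the low end 9 genes had a single cluster, among them RPL17-C18orf32, GPS2 and BNC2, a zinc finger protein with 698 reads in its 3'UTR.

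The gene families were counted against the well-covered genes of the same family, with 12.1% as the share over all well-covered genes. Because families differ in their reads, the number that the shares of the read classes would give is printed beside each count, and no family was tested. Of the 494 genes, 164 were in any of the 27 lists and 330 in none.

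Genes of the respiratory chain and ATP synthase were represented more often than the class shares give, with 9 of 38 against 4.92. They were UQCRB with 2496 reads, COX5A of complex IV with 1656, NDUFA5 of complex I with 1276, and NDUFAF4, COX14, NDUFV3, COX7A2L, NDUFA1 and COX7A2. Their median NXPM was 0.639, well below the 13.2 of all 494 genes. The list was made from symbols, and NDUFAF4 and COX14 in it are assembly factors and not subunits. The mitochondrial ribosomal proteins numbered 7 of 40 (5.20 from the class shares), among them MRPS23 and MRPL33. In contrast, the cytosolic ribosomal proteins had 1 of 53 (5.05), RPL31, which had 420 reads.

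The list of homeobox, SOX, FOX and other developmental factors had 12 of 62 (7.43). They included NKX2-4 with 1292 reads, SIX4 with 1265, KLF9, FOXF2 and SOX2, and their median NXPM was 38.1. Signalling receptors and ligands had 7 of 35 (4.39), with a median NXPM of 88.5, and besides FGF9 and LRP5 these were GPR63, EPHA7, FGF2, FZD6 and ITGA1. The C2H2 zinc finger genes, the largest list by number of well-covered genes, had 16 of 147 (17.5). Of these 16, ZNF33A with 2397 and ZBTB41 with 2051 reads were the strongest. In the 16 genes together, 76.7% of the reads lay in the 3'UTR.

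Genes of the ubiquitin system numbered 18 of 121 (14.4), close to the class shares. Beside RNF11 and RNF168 they included the conjugating enzymes UBE2B with 1938 reads and UBE2A with 598, a pair of close paralogues. Genes of vesicle coats and SNAREs had 7 of 39 (5.63), among them the small GTPases SAR1A with 1597 and SAR1B with 429 reads, which start COPII coats. Small GTPase genes had 8 of 63 (7.52), led by RAB9A with 2326 and RAP1A with 2315 reads. This list was made from symbols and includes RAB3GAP1, which acts on a GTPase and is not itself one. Glycosylation and lipid enzymes had 8 of 43 (7.42), led by AGPAT6.

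The lists of RNA-processing, translation and chaperone genes, made from symbols, do not hold each gene with such a role, and SRRM1, CNOT4 and CDC123 are outside them. Splicing and hnRNP genes had 2 of 76 (5.21), SNRPE with 1559 reads and SNRPB2 with 719, both of spliceosomal ribonucleoproteins. Translation factors and tRNA synthetases had 1 of 48 (4.36), EEF1E1, a scaffold of the synthetase complex. RNA helicases had 1 of 23 (2.40), DHX40, of the same DEAH-box family as DHX36, with 424 reads. Chaperones had 2 of 35 (3.19), HSPA4L and DNAJC21.

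The other lists lay within 3 genes of the class shares. Chromatin regulators had 8 of 60 (7.64), led by PHF10 and PHF3, and cell cycle and replication genes 8 of 70 (7.35), led by the DNA polymerase subunit POLD3 and by CDC123, which entered by its symbol and is described above as an assembly factor of eIF2. Phosphatases had 6 of 50 (5.37), solute carriers and pumps 6 of 51 (6.71) and transmembrane genes of the TMEM kind 4 of 51 (6.67). The list of kinase families, made from symbols, had 4 of 54 (5.57), including PIK3R3 and CDK2AP1, which are not themselves kinases. Histone genes had 3 of 33 (2.98), proteasome genes 3 of 29 (3.52), motor proteins 3 of 22 (3.36) and FAM, C-orf and KIAA genes 20 of 145 (18.6). SLC26A2, a sulfate transporter, with 1737 reads and PPP3R1, the regulatory subunit of calcineurin, with 1331 led the transporters and phosphatases. Cadherins and long noncoding RNA genes had 0 of 2 each, and no symbol of the table began with the prefix searched for mitochondrially encoded genes.

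HAT1, a histone acetyltransferase gene and an RNA known as a DHX36 target from earlier work, was among the 494 genes, with 612 reads in 11 clusters. The other such targets examined had fewer than 400 FH-DHX36-E335A reads and no FH-DHX36 cluster: TCEAL8 had 349 reads, EIF2AK4 had 91 and HTT had 51. HAT1, TCEAL8, EIF2AK4 and HTT are part of a longer list of published targets, most of which the paper reports among its own targets. The rest of that list was not examined here. The genes named thus do not show how often published targets lack an FH-DHX36 cluster. Among all genes with an FH-DHX36-E335A cluster, 37.9% lacked one.

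The identity of the cells could be looked at only through bound RNA, which does not establish it. Of 9 genes taken as markers of HEK293, 3 had an FH-DHX36-E335A cluster, VIM, NEFL and INA. KRT8, KRT18, NEFM, PAX2, LHX1 and EYA1 had none, although KRT8 had 2 FH-DHX36 clusters. Over the whole table, 9131 of 26490 genes had an FH-DHX36-E335A cluster, a share close to that of these markers. Of 7 markers of blood, liver and fibroblasts none had an FH-DHX36-E335A cluster. A gene without a cluster is not shown to be unexpressed.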

How the data were processed

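PAR-CLIP was performed by the authors on 2 replicates of each cell line. According to the methods, reads were mapped to hg19, clusters were called with PARalyzer within PARpipe and annotated with GENCODE v19. The submitters' processing notes name bcl2fastq 2.17.1, and for the other programs a version is not given in the sources used here. Unnormalized counts of clusters and of crosslinked reads were deposited by the authors, as was NXPM, a score in which a gene's share of all reads is divided by RNA abundance. All 30 columns of values hold 1 cell line each with the replicates combined, so that no replicate could be compared. A gene without a cluster is listed at 0 reads.

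Abundance was recovered as scaled reads over NXPM, minus 0.001. The computation was checked on values simulated with the same formula and constant. That check cannot show that the authors used them or that recovered values equal those of their RNA-seq. Reads outside the 4 categories are the gene's total less their sum. Lengths and 3'UTR sequences are those of the canonical transcripts of GENCODE release 44 on GRCh37, the build also called hg19, with the stop codon counted in the CDS. Of the 494 genes, all protein coding, 474 were placed by symbol and 20 by RefSeq synonyms of GRCh38.p14, used for names only. For TXNRD3NB this gave the 3'UTR of TXNRD3.

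The genes, the lists of families (made from patterns of symbols) and the comparisons were chosen with earlier results of these data known. Genes were named by rule: the 10 of most reads, the 10 of highest NXPM at an abundance of at least 1, the 5 of most clusters or of most reads in a category, up to 4 of most reads per list, those next to the limits, and 4 published targets. EBF3, YOD1, BNC2, SIX4 among the clusters, the further members of short lists, the genes at the ends of NXPM and composition and the overlapping or paralogous genes were added after their values were seen. Some genes named by the rule are given only within counts or are not reported here. Shares have 95% Wilson intervals, which cover counting error only, since reads can be PCR copies or overlap and are then not independent. No p-value was computed. Read minimum, scaling, counted unit, transcript and the treatment of repeated identifiers were varied. Python 3.11.15, pandas 2.3.3, numpy 2.4.6, scipy 1.17.1 and matplotlib 3.10.9 were used.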

Additional observations from a re-analysis of the deposited data

How the results depend on the processing

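With a minimum of 200 or 800 FH-DHX36-E335A reads, 1099 or 146 genes lacked an FH-DHX36 cluster, which was 19.5% or 5.67% of the genes above the minimum, and at 800 the median NXPM was 21.6. Counting exonic FH-DHX36 clusters only raised the share at 400 reads to 19.1%. The median of scaled reads was 137 with the median ratio of genes bound in both and 144 with totals that left out the genes of most reads. The 3'UTR and intron shares of reads were 51.3% and 6.13% by clusters, 63.6% and 0% as medians per gene, and 57.2% and 5.43% without the 10 genes of most reads. Alternatives chosen after seeing the data gave 67.1% and 6.10% over the 4 categories, and a difference in median A plus T of 4.71 percentage points at 400 to below 1000 reads, against 3.73 over all. In all, 17 alternative values moved, 14 did not and 0 reversed. The number of genes was judged by 1.5 times, and the 3'UTR and intron shares by the Wilson interval over reads. That interval is narrow, 55.64% to 55.95% for the 3'UTR, and takes reads as independent, so small changes count as moved. The rest were judged by an interval or margin across genes. No paired analysis was possible because the columns combine the replicates, and for the same reason no replicate could be left out. The 4.05 times fewer listed FH-DHX36 reads limit what the absence of a cluster can show at any number of FH-DHX36-E335A reads. The parts of read number, isoform and mutation in this absence were not tested and cannot be told apart.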

Other observations

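The converse genes were few. Their FH-DHX36-E335A clusters were sought in the PAR-CLIP with 4.05 times more listed crosslinked reads, so their share is not comparable with the 12.1% above. Of 3294 genes with at least the scaled minimum of 98.7 FH-DHX36 reads, 38 (1.15%) had no FH-DHX36-E335A cluster, and 27 of these had a single FH-DHX36 cluster. PPFIA1, a liprin, had the most, 608 reads in the CDS, and ANKRD30BL had 429 outside the 4 categories.

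Several pairs of paralogues both lacked an FH-DHX36 cluster, a set chosen after its values were seen and not tested. RGMA and RGMB, repulsive guidance molecules, had 510 and 856 FH-DHX36-E335A reads. FAM96A and FAM96B had 863 and 1818, and COX7A2 and COX7A2L had 404 and 563. FAM96A had 613 of its reads in the 3'UTR and FAM96B 215, while RGMB had 660 and RGMA 54. COX7A2 and COX7A2L both had most reads outside the 4 categories, 303 and 345.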
